A study of Mus musculus with 2 samples.

Results

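The genes examined here were 39 genes of glycolysis and the hypoxia response, taken by symbol from a fixed list out of the 32285 genes counted in each library. They comprised 21 genes that carry glucose from the membrane to pyruvate and 2 genes of pyruvate dehydrogenase, which turns pyruvate into acetyl-CoA. The others were 5 genes of the hypoxia-inducible factors (HIF) and their oxygen sensing, and 11 common HIF target genes. The rule holds gene symbols and no measured value, but its genes were chosen with earlier results of these data known. All 39 genes had at least 50 unique molecules (UMIs, each a captured transcript counted once) in the cells kept.

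Glycolysis splits glucose into pyruvate in the cytosol, and cells with little oxygen or with high growth demand turn that pyruvate into lactate, which leaves and enters cells through monocarboxylate transporters such as MCT1. HIF is a pair of subunits whose alpha part (Hif1a or Epas1, the gene of HIF-2 alpha) is hydroxylated by the prolyl hydroxylases Egln1 and Egln3 when oxygen is present and then marked for destruction by Vhl. With little oxygen the alpha part persists and switches on glucose transporters, glycolytic enzymes and genes such as Bnip3, Ndrg1 and P4ha1. Pancreatic tumors are dense, poorly perfused tissues in which this response is commonly seen.

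KPC cells, cultured mouse pancreatic cancer cells with Pdx1-driven Cre and mutant p53, were placed in the pancreas of male mice to form tumors. In the FLOX genotype part of Slc16a1, the gene that encodes MCT1, is flanked by loxP sites, and in the MCT1-KO genotype a tamoxifen-activated Cre (Col1a2-CreERT2) is meant to remove that part. The Col1a2 promoter acts in fibroblast-like cells such as pancreatic stellate cells (PSCs), so neither the injected KPC cells nor the immune cells are meant to lose the gene. The study's methods describe tamoxifen injections before the KPC cells were placed, and a figure legend names tamoxifen or corn oil. The genotype label does not say which of these the mice of a library received. A difference in that treatment could not be told apart from genotype. The labels give no age, and do not say how many mice were pooled into a library. Each condition had 1 library, so no test between conditions was possible, and every interval below is a 95% interval that covers counting error only.

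The libraries held 177334432 and 151118092 UMIs, of which 61149689 (FLOX) and 81494894 (MCT1-KO) lay in the 8739 and 11689 barcodes kept as cells. The median kept barcode held 4069 and 3706 UMIs, and 59 kept barcode sequences occurred in both libraries. Slc16a1 was not lower in the library labelled MCT1-KO: in PSC-like cells it stood at 25.4 CPM (the share of a class's UMIs, scaled as counts-per-million) in FLOX, from 57 UMIs, and 35.6 CPM in MCT1-KO, from 113 UMIs, a ratio of 1.401 (1.01 to 1.96). The counts cannot show whether those transcripts lack the deleted part, so the direction of every comparison below rests on the label alone. Heat shock genes summed to 7888 and 3034 CPM in tumor-like cells and to 5454 and 2443 CPM in free RNA (barcodes of 10 to 100 UMIs), and acinar enzyme genes to 45.8 and 842 CPM and to 358 and 19050 CPM. The part of these library differences in the results below was not tested.

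Cells were grouped into classes by marker genes, and 7 classes had at least 50 barcodes in each library. These were tumor-like (2523 in FLOX and 3817 in MCT1-KO), PSC-like (238 and 426), myeloid-like (2559 and 2222), neutrophil-like (757 and 705), dendritic-like (117 and 107), T/NK-like (533 and 484) and endothelial-like cells (122 and 143). Clusters that met no marker rule held 20.5% of FLOX and 26.9% of MCT1-KO barcodes and were left unnamed. In the PSC-like class the 11 PSC markers summed to 25550 and 18930 CPM, but 14 of 14 myeloid markers were present in either library as well, at 3066 and 4928 CPM in sum. All but 11 of the 238 FLOX and 65 of the 426 MCT1-KO PSC-like barcodes held a UMI of Ptprc, Cd74, Lyz2 or C1q.

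Among genes of transport and the head of glycolysis, only Slc2a3, Hk2 and Pfkp had a class more than 2-fold above the next in both libraries. Gpi1, an isomerase, was highest in FLOX dendritic-like (301 CPM) and MCT1-KO neutrophil-like cells (320 CPM), 1.14-fold and 1.07-fold above the next class. Of the 9 lower glycolysis genes 7 were abundant in every class. The other 2, Aldoc and Eno2, stayed at or under 21.6 and 11.3 CPM. Slc2a3 (GLUT3, a high-affinity glucose transporter) was a neutrophil-like gene, at 140.3 CPM in FLOX and 64.9 CPM in MCT1-KO. The next class, T/NK-like cells, held 42.5 and 29.4 CPM, and tumor-like cells 0.471 and 0.329 CPM. Slc2a1 (GLUT1), the other glucose transporter of the list, was also highest in neutrophil-like cells, at 132.6 and 111 CPM, but supplied over 99% of the transporter UMIs in tumor-like cells (99.4% and 99.6%), where it stood at 72.5 (69.6 to 75.4) and 73.9 CPM (71.7 to 76.2). With each barcode thinned to 1000 UMIs, Slc2a3 was seen in 10.7% and 6.18% of neutrophil-like barcodes against 0.125% and 0.0273% of tumor-like ones.

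Hk2, the hexokinase that is bound to mitochondria and inducible by HIF, was highest in PSC-like cells, at 338 CPM (314 to 363) in FLOX and 395 CPM (374 to 418) in MCT1-KO. That was 2.18-fold and 3.19-fold above tumor-like cells, the next class, at 155 and 124 CPM. It made up 90.7% and 90.9% of hexokinase UMIs in PSC-like cells and 75.9% and 73.7% in tumor-like cells, while Hk1, the constitutive form, led in endothelial-like cells (66.7% and 76.1%). Thinned to 1000 UMIs, 22.9% and 35.4% of PSC-like barcodes held an Hk2 UMI against 12.0% and 10.9% of tumor-like barcodes. Hk3, a hexokinase of myeloid cells, was highest in neutrophil-like (63.6 and 37.4 CPM) and myeloid-like cells (48.4 and 18.8 CPM).

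Pfkp, the platelet form of phosphofructokinase, which commits glucose to glycolysis, was highest in dendritic-like cells. It stood there at 379 CPM (345 to 415) and 361 CPM (318 to 409), which was 2.94-fold and 4.04-fold above T/NK-like cells. It was the leading phosphofructokinase by UMIs in each of the 7 classes, from 51.8% of the group in FLOX tumor-like cells to 94.7% in MCT1-KO dendritic-like cells. Among the PFKFB enzymes, which set the level of the activator fructose 2,6-bisphosphate, Pfkfb4 led in tumor-like cells (45.2% and 54.3%) and Pfkfb3 in the other 6 classes.

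The 9 genes of lower glycolysis, from aldolase to pyruvate kinase, summed to 3674 CPM (3654 to 3695) and 3477 CPM (3461 to 3493) in tumor-like cells. In myeloid-like cells the sum was 3666 and 2591 CPM, in PSC-like cells 2632 and 2251 CPM, and in T/NK-like cells 2815 and 2548 CPM. In FLOX the tumor-like and myeloid-like intervals overlapped, and in MCT1-KO tumor-like cells stood highest of these 4 classes. Gapdh supplied 26.9% to 46.1% of these UMIs over the classes and libraries. Eno2, the neuronal enolase, was the only one of the 9 with a class more than 2-fold above the next in both libraries, PSC-like cells, where it stood at 6.23 and 11.3 CPM from 14 and 36 UMIs. Its close relative Eno1 has a near-identical copy, Eno1b, which held 0 UMIs, and how reads that fit both were assigned is not given in the sources used here. Aldoa is listed under 2 identifiers, of which the second held 5 and 4 UMIs, and the sum of both is given.

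**Figure D1:**
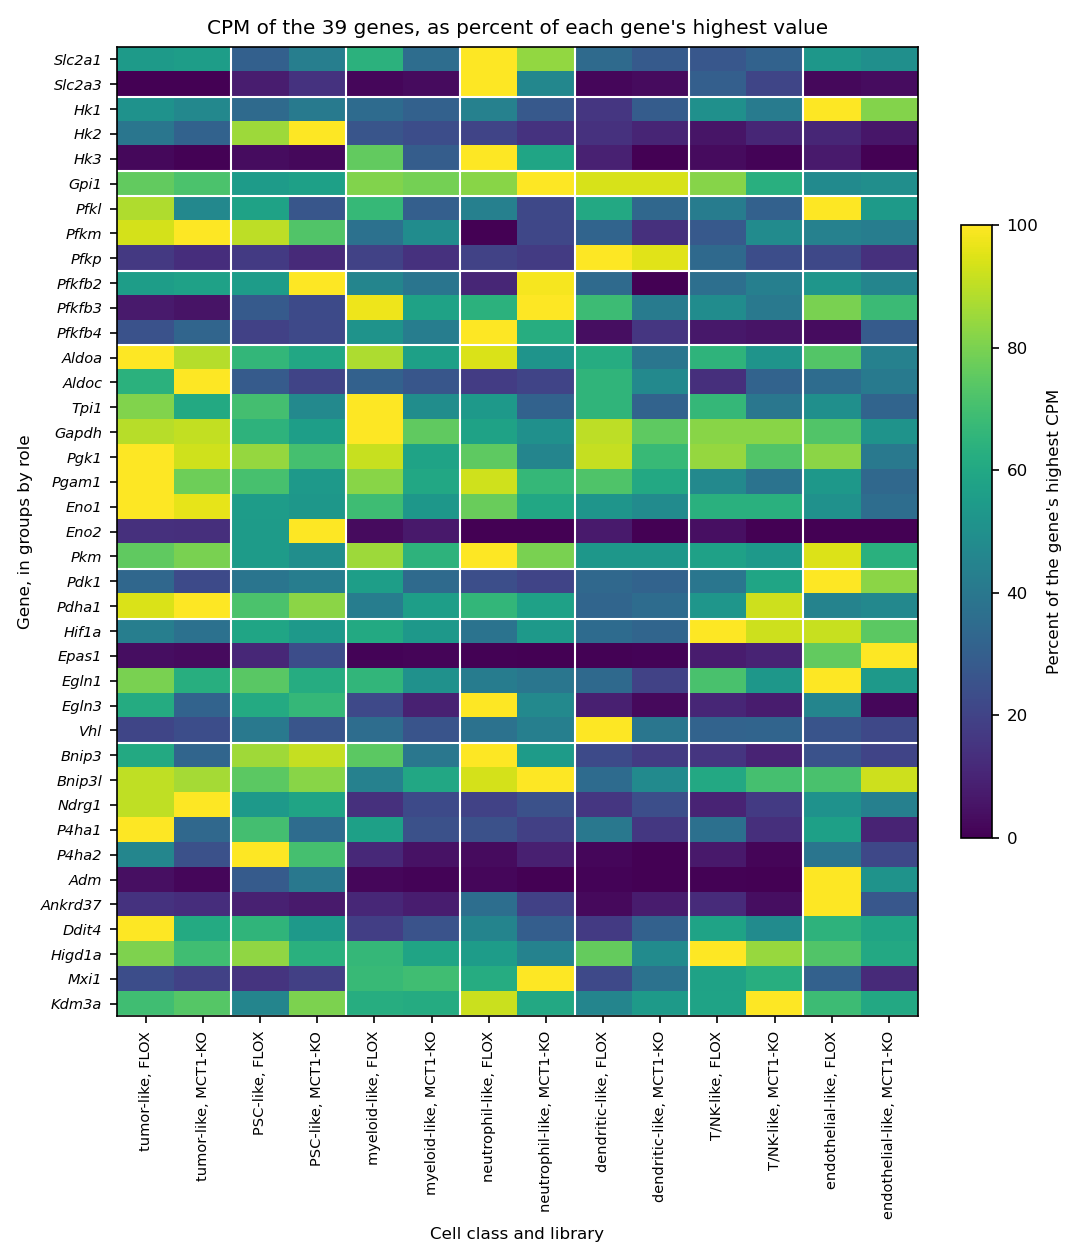
Level of each member in the 7 cell classes of each library, ordered by role. Colours give the CPM as a percent of that gene's own highest value, so they cannot be compared between genes. Slc2a3 stood out in neutrophil-like, Hk2 and P4ha2 in PSC-like, Pfkp in dendritic-like and Epas1 in endothelial-like cells. The lower glycolysis genes other than Aldoc and Eno2 stood at 100.1 CPM or more in every column, which the colours do not show.

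The HIF subunits differed in where they were found. Hif1a was present in every class and highest in T/NK-like cells, at 289 CPM (266 to 313) in FLOX and 266 CPM (242 to 293) in MCT1-KO. Endothelial-like cells came next at 265 (227 to 307) and 215 CPM (175 to 262), and these intervals overlapped those of T/NK-like cells in each library. Epas1, which is known as the HIF alpha subunit of blood vessels, was highest in endothelial-like cells, at 252 CPM (215 to 294) and 332 CPM (281 to 389). PSC-like cells were next, 6.91-fold and 4.24-fold below, and neutrophil-like cells held 3 and 1 UMIs. Thinned to 1000 UMIs, Epas1 was seen in 23.2% and 33.6% of endothelial-like, 4.76% and 6.98% of PSC-like and 0.142% and 0.229% of neutrophil-like barcodes.

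Among the HIF targets, P4ha2, a subunit of the prolyl hydroxylase that stabilises collagen, was highest in PSC-like cells (50.8 and 35.9 CPM), 2.19-fold and 2.86-fold above tumor-like cells. Ndrg1, a stress-responsive gene of epithelia, was highest in tumor-like cells at 602 CPM (594 to 610) and 665 CPM (659 to 672), followed by PSC-like cells at 357 and 389 CPM. Ndrg1 alone held 41.0% and 52.4% of the HIF target UMIs of tumor-like cells. Adm, the gene of the vasodilator peptide adrenomedullin, was highest in endothelial-like cells at 94.3 and 48.3 CPM, and PSC-like cells held 27.2 and 37.8 CPM. No target led in all classes: Mxi1 held the largest share in myeloid-like cells (20.6% and 21.6%) and Higd1a, whose protein sits in the mitochondrial inner membrane, in T/NK-like cells (27.6% and 23.6%).

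**Figure D2:**
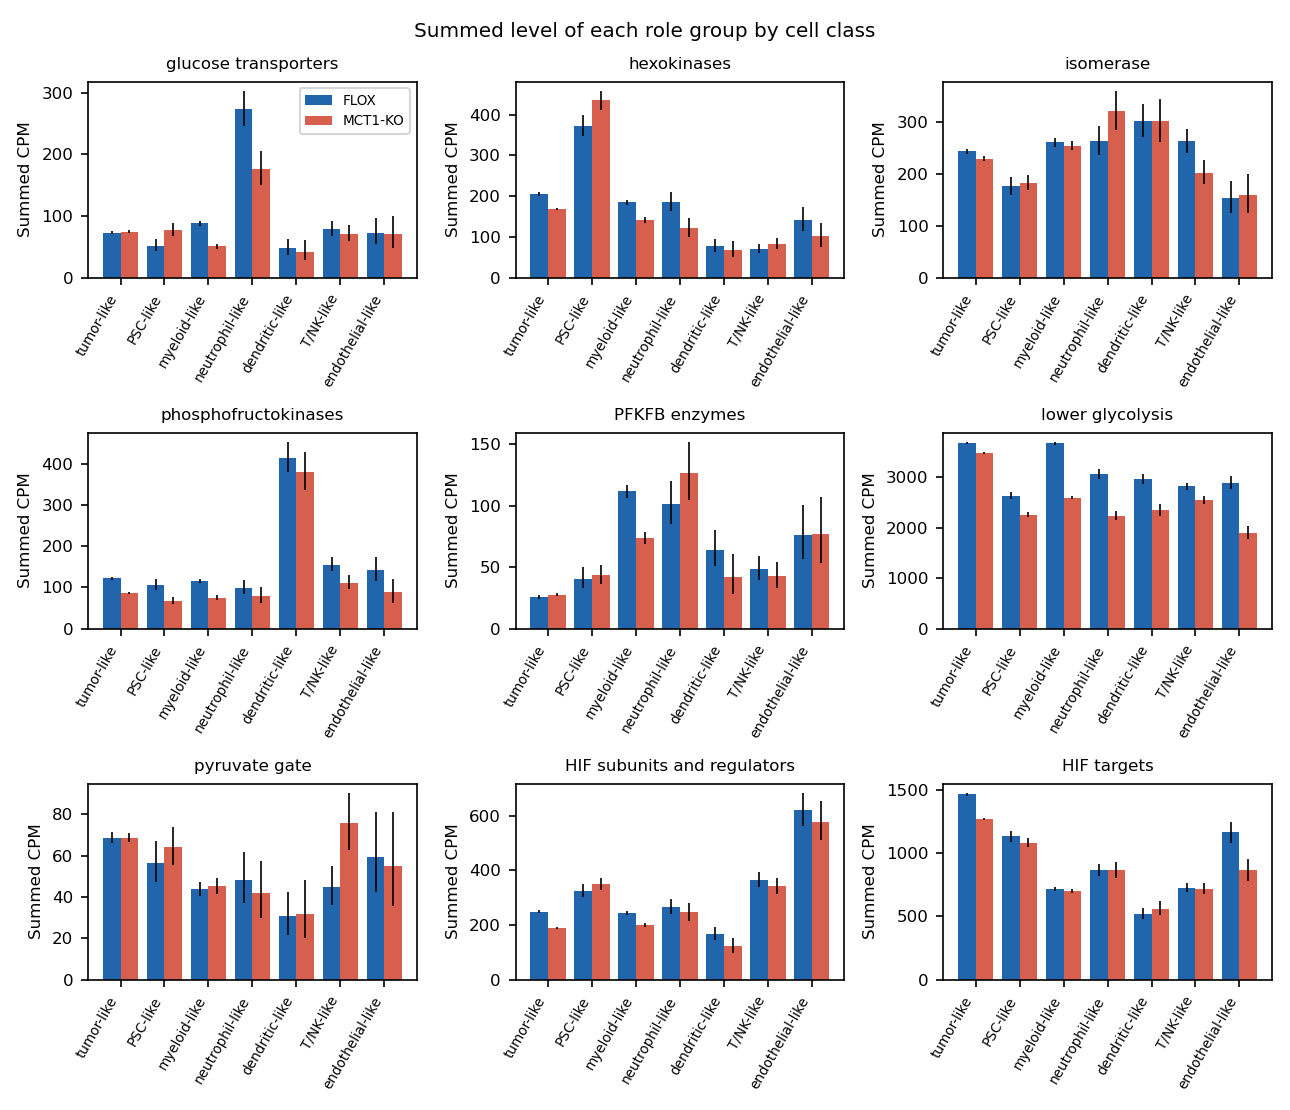
CPM of summed role groups in the 7 cell classes, with bars from 0 for the FLOX and MCT1-KO libraries and 95% counting intervals as error bars. Lower glycolysis stood at 3674 and 3477 CPM in tumor-like cells and at 3666 and 2591 CPM in myeloid-like cells.

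HIF binds DNA at short hypoxia response elements whose core reads ACGTG or GCGTG. RefSeq promoters on GRCm38.p6, read as the 250 bases before each start, matched 35 of the 39 genes, and 31 of these (88.6%) held a core on either strand, as did 9 of 9 matched HIF targets. Of all 27025 genes with such a window, 41.5% held one. A gene was counted if any of its start sites held a core. Counted by promoter, 41 of 53 promoters of the members held one, against 38.6% of all 32851. A match is a stretch of letters and not a measured binding site, and a palindromic CACGTG counts as a match on each strand. The promoters of P4ha1, Bnip3 and Egln3 are shown because these hypoxia genes were lower by 1.5-fold or more in the MCT1-KO library in 6 of 7, 4 of 5 and 3 of 4 cell classes with enough UMIs. On the GRCm38 annotation P4ha1 (ENSMUSG00000019916) lies at chr10:59323296-59373304, Bnip3 (ENSMUSG00000078566) at chr7:138890836-138909519 and Egln3 (ENSMUSG00000035105) at chr12:54178981-54203860. The promoter windows lie at chr10:59323046-59323295 on the plus strand (P4ha1), chr7:138909507-138909756 on the minus strand (Bnip3) and chr12:54203875-54204124 on the minus strand (Egln3). Capitals mark ACGTG and GCGTG or their reverse complements CACGT and CACGC, and each sequence reads in the direction of its gene.
P4ha1: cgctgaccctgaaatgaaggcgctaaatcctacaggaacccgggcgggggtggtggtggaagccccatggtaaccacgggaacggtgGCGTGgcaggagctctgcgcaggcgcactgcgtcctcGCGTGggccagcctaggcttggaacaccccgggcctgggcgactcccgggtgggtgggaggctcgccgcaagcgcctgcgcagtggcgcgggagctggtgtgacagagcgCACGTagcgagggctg
Bnip3: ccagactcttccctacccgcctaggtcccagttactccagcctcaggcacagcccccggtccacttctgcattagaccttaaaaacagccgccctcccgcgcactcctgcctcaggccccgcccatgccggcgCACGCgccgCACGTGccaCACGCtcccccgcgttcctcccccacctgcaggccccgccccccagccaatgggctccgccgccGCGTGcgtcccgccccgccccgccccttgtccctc
Egln3: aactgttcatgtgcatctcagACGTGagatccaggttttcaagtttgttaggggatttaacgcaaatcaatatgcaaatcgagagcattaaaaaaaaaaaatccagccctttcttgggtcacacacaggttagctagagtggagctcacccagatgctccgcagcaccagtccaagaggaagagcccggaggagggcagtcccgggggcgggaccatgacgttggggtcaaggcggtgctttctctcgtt
There were 3 matches before P4ha1, 5 before Bnip3 and 1 before Egln3. The glycolysis genes Tpi1 and Pfkl, lower by the fold in 5 of 7 and 5 of 6 classes, had 0 and 1.

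The first comparison asked how the gene set differed between libraries in tumor-like cells, which the Cre is not meant to reach. A group of hypoxia genes was lower in MCT1-KO, whereas 2 of 20 glycolysis members were lower by the fold. Of 38 members with at least 50 UMIs, 8 were lower by 1.5-fold or more (Hk3, Pfkl, Egln3, Bnip3, P4ha1, P4ha2, Adm and Ddit4), which is 21.1%, and 1 was higher (Aldoc). Of all 13232 genes tested in these cells the same fold called 8.62% lower and 5.49% higher. The median ratio of the members, MCT1-KO over FLOX, was 0.884, against 1.01 over all genes. In the same barcodes the 21 tumor markers, all present in both libraries, summed to 1678 and 2184 CPM, against 1553 and 1860 CPM in free RNA. The 14 myeloid markers, also all present, summed to 1055 and 468 CPM. The 11 PSC markers, all present too, came to 2145 and 1359 CPM, which in FLOX was above the tumor markers. The part of other cell types' RNA in these ratios was not tested.

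P4ha1, a catalytic subunit of collagen prolyl hydroxylase, had the widest gap of the abundant members. It stood at 179.8 CPM (175 to 184) in FLOX and 61.1 CPM (59.0 to 63.2) in MCT1-KO, which gave a ratio of 0.340 (0.326 to 0.354). A P4ha1 UMI was present in 61.7% (59.8 to 63.6) of FLOX and 44.1% (42.6 to 45.7) of MCT1-KO tumor-like barcodes, and in 13.4% (12.1 to 14.9) and 5.28% (4.57 to 6.05) after thinning to 1000 UMIs, where neutrophil-like barcodes held it in 4.13% and 3.89%. Its relative P4ha2, which takes the same place in a separate form of the enzyme, was at 23.2 and 12.5 CPM, a ratio of 0.540 (0.487 to 0.599). Both genes were lower in MCT1-KO.

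Egln3, the oxygen sensor that is itself induced by HIF, stood at 75.8 and 39.2 CPM, a ratio of 0.517 (0.488 to 0.548). Bnip3, which marks mitochondria for autophagy, stood at 65.7 and 35.2 CPM, a ratio of 0.535 (0.504 to 0.569). Its relative Bnip3l was nearly level at 187 and 179 CPM, a ratio of 0.956. Ddit4, an inhibitor of mTOR signalling, stood at 150.1 and 92.0 CPM, a ratio of 0.613 (0.590 to 0.638). Adm was rare in tumor-like cells, at 126 and 85 UMIs or 3.71 and 1.55 CPM, a ratio of 0.418 (0.314 to 0.555).

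Ndrg1 differed from these targets, at a ratio of 1.11 (1.09 to 1.12). The HIF targets together came to 1467 CPM (1455 to 1480) and 1271 CPM (1261 to 1280), which gave a ratio of 0.866, and without Ndrg1 to 866 and 605 CPM, a ratio of 0.699 (0.688 to 0.710). Of the 11 targets 9 had a ratio under 1, against 48.5% of all 13232 genes. Egln1, the housekeeping oxygen sensor, stood at 29.2 and 22.9 CPM and Hif1a at 123 and 108 CPM, ratios of 0.785 and 0.879.

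Among the glycolytic genes Pfkl, the liver form of phosphofructokinase, was the abundant member with the lowest ratio, 49.5 and 26.2 CPM, 0.528 (0.492 to 0.567). Hk3 was nearly absent, with 44 and 15 UMIs, a ratio of 0.211 (0.109 to 0.387) that came to 0.818 with free RNA subtracted by its acinar share. Hk2, which leads the group, stood at 155 and 124 CPM, a ratio of 0.799 (0.771 to 0.829). Aldoc, the brain form of aldolase, was the only member higher by the fold, at 13.8 and 21.6 CPM, a ratio of 1.57 (1.41 to 1.75). Its ratio stayed past the fold in 8 of 10 alternative settings, with a lowest value of 1.48. Gapdh had a ratio of 1.02 (1.00 to 1.03), Pkm 1.06, Eno1 0.962 and Slc2a1 1.02 (0.970 to 1.07). Short of the fold were Tpi1 at 260 and 194 CPM (0.748), Pgam1 at 350.2 and 273 CPM (0.778) and Pfkfb3 at 5.89 and 4.31 CPM (0.732). The 21 glycolysis genes came to 4342 and 4062 CPM together, a ratio of 0.935 (0.929 to 0.942).

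**Figure D3:**
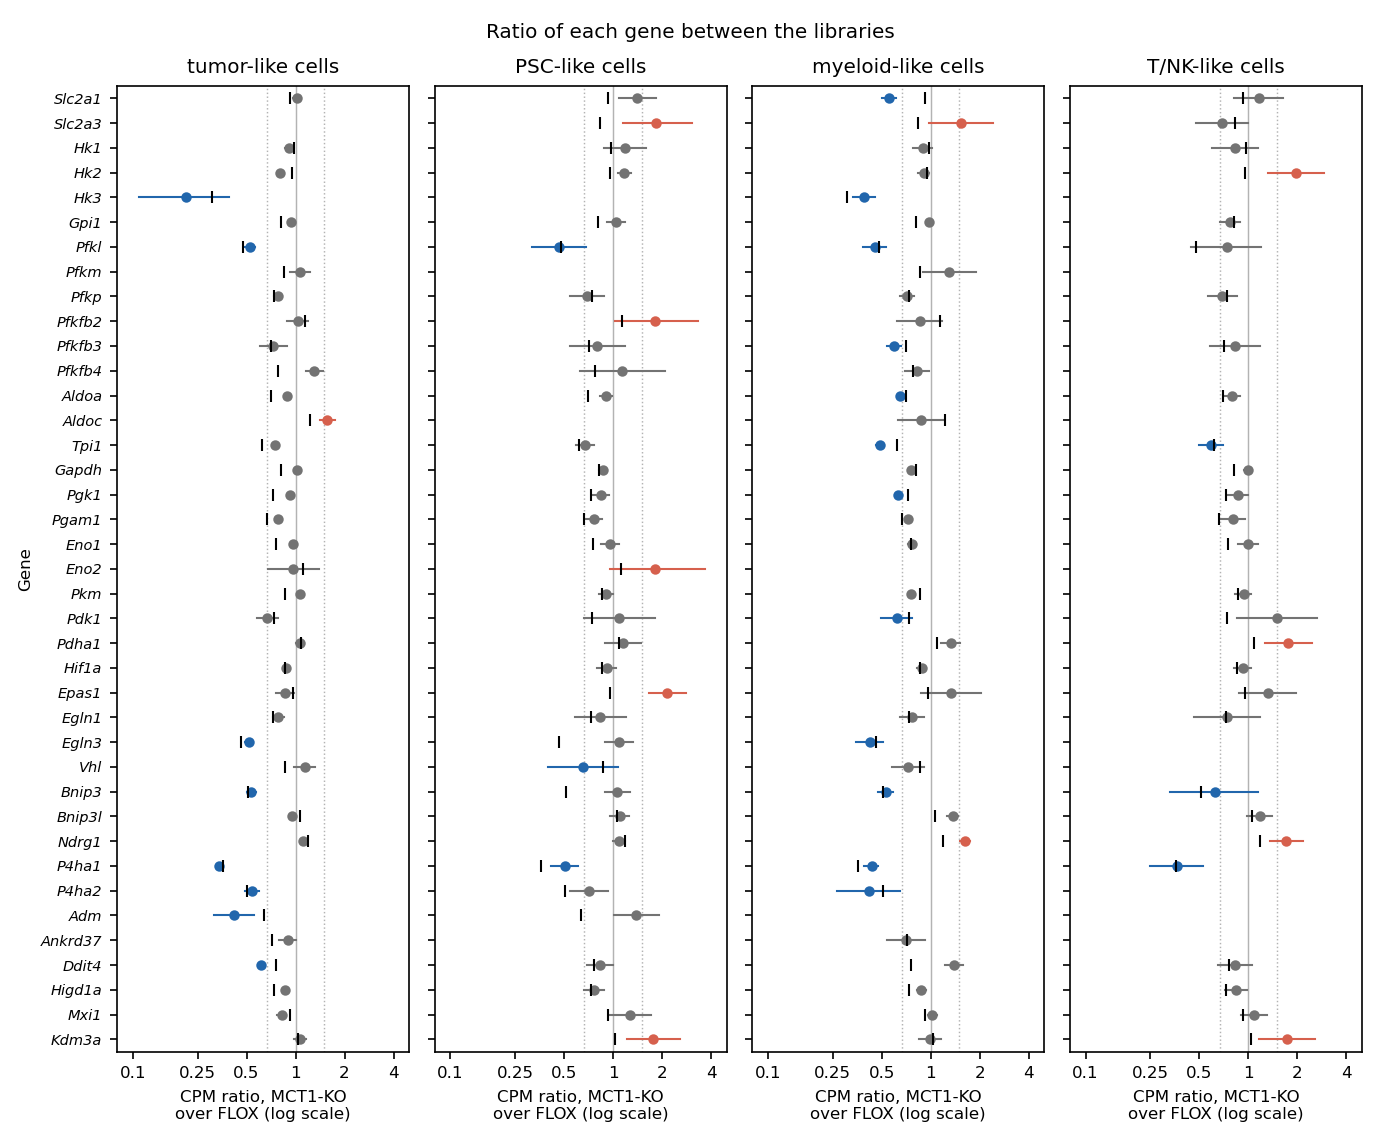
Ratio of CPM, MCT1-KO over FLOX, of each member with at least 50 UMIs in tumor-like, PSC-like, myeloid-like and T/NK-like cells. The axis is logarithmic, with 95% counting intervals and dotted lines at 1.5-fold in each direction. P4ha1 lay below the lower line in all 4 panels (0.340, 0.503, 0.433 and 0.366), whereas Bnip3 and Egln3 lay at 1.06 and 1.09 in PSC-like cells.

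The tumor-like class was made of 5 clusters, so the mix of clusters could move its sums. The cluster led by Msln, Krt19 and Car9 held 602 FLOX and 1130 MCT1-KO barcodes, and the cluster whose leading genes include Inhba and Tnc held 776 and 908, at a median of 3413 and 12158 UMIs. P4ha1 was lower in each of the 5, with ratios of 0.306 to 0.564. Ratios of Bnip3 ran from 0.369 to 0.679, of P4ha2 from 0.491 to 0.586, of Ddit4 from 0.573 to 0.758 and of Egln3 from 0.376 to 0.860. In the fifth cluster, led by interferon genes, the Egln3 interval reached above 1 (0.642 to 1.15). Ndrg1 ran from 0.980 in the Msln cluster to 1.499 in the interferon cluster.

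Lower glycolysis was uneven over those clusters. The Msln cluster held 4646 and 4288 CPM and the cluster led by cell cycle genes 4759 and 3825 CPM. The remaining 3 lay between 2544 and 3072 CPM. In the cluster led by Cxcl15, Ahsg and Meox1 and in the interferon cluster the sum was as high or higher in MCT1-KO (2792 and 2838 CPM, 2979 and 3072 CPM).

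**Figure D4:**
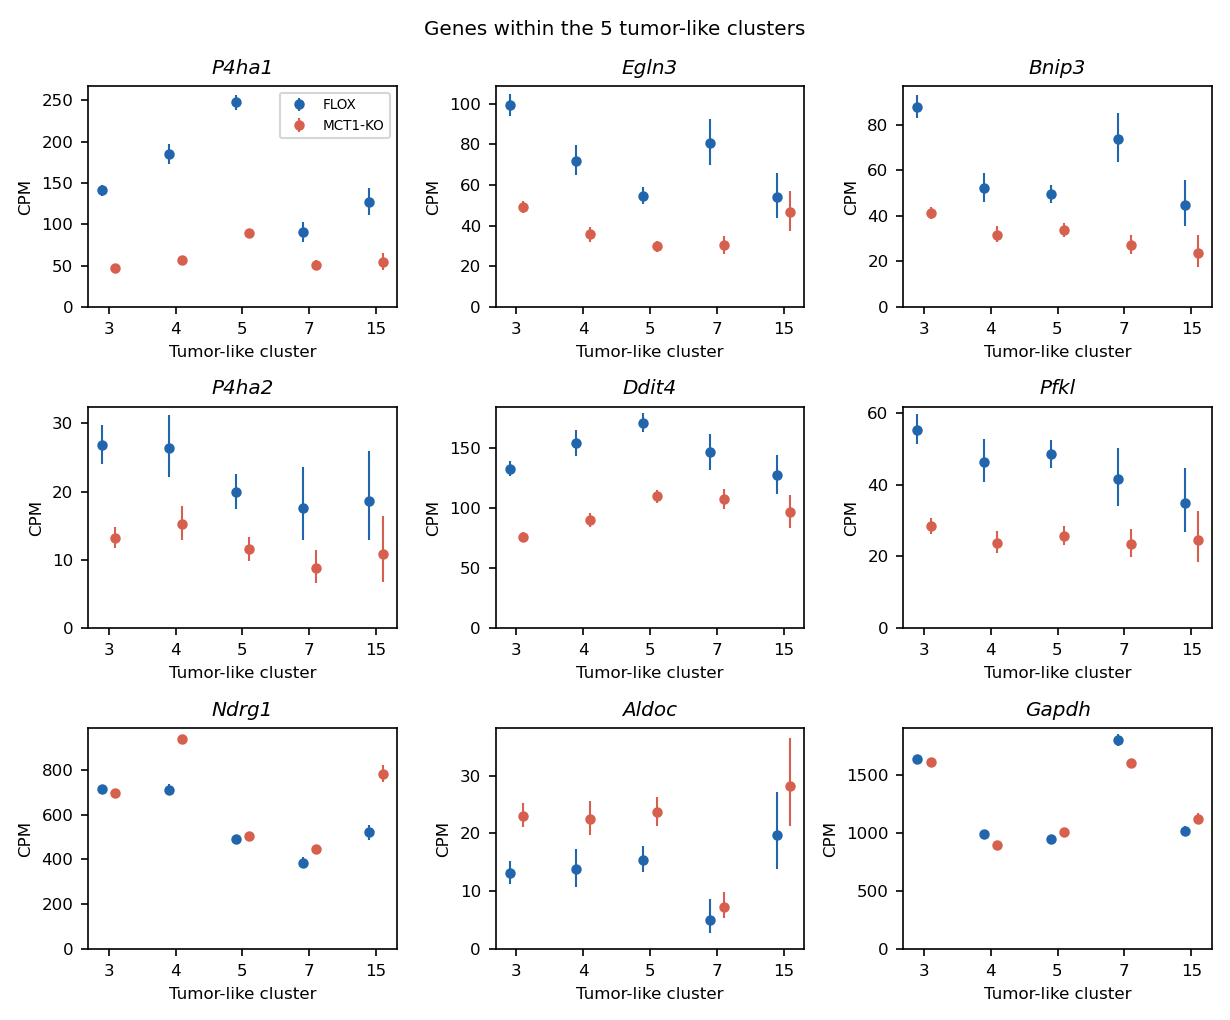
Levels in CPM of members in the 5 tumor-like clusters, with a FLOX and a MCT1-KO point for each cluster and 95% counting intervals. P4ha1 was lower in MCT1-KO in each cluster, by ratios of 0.306 to 0.564.

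PSC-like cells are the intended site of the deletion. There the collagen hydroxylase gene P4ha1 was lower as in tumor-like cells, Egln3 and Bnip3 were not, and Epas1 was higher. Of 35 members tested 3 were lower by 1.5-fold (Pfkl, Vhl and P4ha1), which is 8.57%, and 5 were higher (Slc2a3, Pfkfb2, Eno2, Epas1 and Kdm3a), which is 14.3%. Of 8608 genes in all, 11.1% were lower and 9.84% higher, so the members' shares were near the background in this setting. Their median ratio was 1.04, against 0.980 over all genes. More members were lower with each barcode counted equally or with free RNA subtracted by its acinar share, and fewer were higher without likely doublets.

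Epas1 stood at 36.5 CPM (29.0 to 45.3) in FLOX, from 82 UMIs, and at 78.3 CPM (68.9 to 88.7) in MCT1-KO, from 249 UMIs, a ratio of 2.15 (1.67 to 2.79). It was 2.36 (1.79 to 3.15) without the barcodes most like doublets. The endothelial markers of PSC-like cells summed to 117 and 116 CPM, while free RNA held Epas1 at 10.7 and 10.3 CPM. P4ha1 stood at 126 and 63.6 CPM, a ratio of 0.503 (0.418 to 0.604). Egln3 was at 75.7 and 82.4 CPM, a ratio of 1.09 (0.895 to 1.33) that was 1.41 (1.11 to 1.80) without the barcodes most like doublets, and Bnip3 at 92.6 and 98.5 CPM, a ratio of 1.06 (0.890 to 1.27). Over all tumor-like cells the intervals of these 2 genes ended at 0.548 and 0.569, below the PSC-like ones. In the interferon cluster of tumor-like cells, however, the Egln3 interval overlapped the PSC-like one, and intervals cover counting error only. Of the other hypoxia genes lower in tumor-like cells, P4ha2 had a ratio of 0.707 (0.540 to 0.924) here, Ddit4 of 0.825 (0.687 to 0.992) and Adm of 1.39 (1.01 to 1.93), none past the fold.

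Kdm3a, a histone demethylase induced by HIF, stood at 18.3 and 32.1 CPM, a ratio of 1.76 (1.21 to 2.59), and 1.15 with classes set by each barcode's markers. Slc2a3 rested on 25 and 65 UMIs, a ratio of 1.84 (1.14 to 3.04), and Pfkfb2 on 18 and 46 UMIs, a ratio of 1.81 (1.03 to 3.31). Eno2 had 14 and 36 UMIs and a ratio of 1.82 (0.957 to 3.65), and Vhl 37 and 34 UMIs and a ratio of 0.649 (0.395 to 1.06). The intervals of Eno2 and Vhl include 1, and with classes set by each barcode's markers the ratios of Pfkfb2 and Vhl were 1.16 and 1.03. Pfkl was at 32.5 and 15.1 CPM, a ratio of 0.465 (0.316 to 0.678), and Slc2a1 at 40.5 and 56.9 CPM, a ratio of 1.41 (1.09 to 1.83). Hk2, which with Eno2 and P4ha2 was more than 2-fold higher in this class than in the next, had a ratio of 1.17 (1.07 to 1.28).

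The glycolysis genes summed to 3379 CPM (3303 to 3456) and 3056 CPM (2996 to 3118) in PSC-like cells, which gave a ratio of 0.904, and the HIF targets to 1135 and 1083 CPM, a ratio of 0.954 (0.906 to 1.00). Myeloid markers in these barcodes were 1.61-fold higher in MCT1-KO, tumor markers came to 386 and 505 CPM with 19 and 20 of 21 present, and islet markers, led by Ppy, to 354 and 6.92 CPM. Their part in the PSC-like values was not tested.

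Myeloid-like cells, which are macrophages and monocytes by their markers, had more members lower than any other of the 4 main classes. These were 7 of 20 glycolysis members and 3 of 10 HIF targets, besides Pdk1 and Egln3. Of 37 members tested 12 (32.4%) were lower by 1.5-fold, against 8.93% of 11427 genes in all, and 2 were higher (Slc2a3 and Ndrg1), against 9.14%. The 12 were Slc2a1, Hk3, Pfkl, Pfkfb3, Aldoa, Tpi1, Pgk1, Pdk1, Egln3, Bnip3, P4ha1 and P4ha2. The median ratio of the members was 0.769, against 1.02 over all genes. In the same barcodes neutrophil markers (8 of 8 present in each library) summed to 323 and 209 CPM, T/NK markers (13 of 14 in each) to 46.9 and 25.2 CPM and heat shock genes to 5557 and 2139 CPM, and their part in these ratios was not tested.

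Slc2a1, the main glucose transporter of these cells, stood at 85.2 CPM (80.7 to 89.9) in FLOX and 47.2 CPM (43.3 to 51.2) in MCT1-KO, which gave a ratio of 0.553 (0.501 to 0.611). Hk3 was at 48.4 and 18.8 CPM, a ratio of 0.389 (0.334 to 0.453), whereas Hk2 had a ratio of 0.905. Pfkfb3, the PFKFB form with the strongest kinase activity, was at 81.4 and 48.2 CPM, a ratio of 0.593 (0.536 to 0.655). Pfkl was at 37.6 and 17.1 CPM, a ratio of 0.454 (0.385 to 0.533).

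In lower glycolysis all 8 members tested had ratios under 1, from 0.490 to 0.866, against 46.6% of all 11427 genes under 1. Tpi1, triose phosphate isomerase, was at 320.2 and 157 CPM, a ratio of 0.490 (0.464 to 0.517). Pgk1 was at 269 and 171 CPM, a ratio of 0.634 (0.601 to 0.669), and Aldoa at 588 and 383 CPM, a ratio of 0.651 (0.628 to 0.675). Gapdh stood at 1431 and 1083 CPM, a ratio of 0.757 (0.740 to 0.773), short of the fold. The glycolysis genes summed to 4426 CPM (4393 to 4459) and 3186 CPM (3154 to 3218), which gave a ratio of 0.720 (0.711 to 0.729), and to a ratio of 0.702 without Gapdh. Pdk1, a kinase that inhibits pyruvate dehydrogenase, was at 17.8 and 11.0 CPM, a ratio of 0.617 (0.498 to 0.763).

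Of the hypoxia genes in myeloid-like cells, P4ha1 was at 103 and 44.4 CPM, a ratio of 0.433 (0.392 to 0.478), and Egln3 at 27.3 and 11.5 CPM, a ratio of 0.422 (0.345 to 0.512), and 0.224 with classes set by each barcode's markers but 0.750 with free RNA subtracted by its acinar share. Bnip3 was at 80.7 and 42.7 CPM, a ratio of 0.529 (0.476 to 0.587), and P4ha2 rested on 90 and 29 UMIs at a ratio of 0.421 (0.267 to 0.645). Ndrg1 went the other way, at 91.4 and 149 CPM, a ratio of 1.63 (1.52 to 1.75), but its ratio was 0.996 with no upper limit on genes per barcode and 1.03 without likely doublets. The tumor markers in myeloid-like cells came to 209 and 371 CPM, and Ndrg1 is a tumor-like gene, but the part of tumor RNA was not tested. Slc2a3 had 39 and 46 UMIs and a ratio of 1.54 (0.983 to 2.42). The HIF target sum was nearly level at 719 and 704 CPM, a ratio of 0.979 (0.952 to 1.01), but this depended on the processing. It fell below that interval with no upper limit on genes and without likely doublets. With free RNA subtracted by its acinar share it rose above that interval.

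In T/NK-like cells 28 members reached 50 UMIs, of which 3 were lower (Tpi1, Bnip3 and P4ha1), 10.7% against 9.5% of 7241 genes. Another 4 were higher (Hk2, Pdha1, Ndrg1 and Kdm3a), 14.3% against 7.02%. The median ratio was 0.855, against 0.976 over all genes. More members were lower with each barcode counted equally. More were higher with free RNA subtracted by its acinar share, and fewer with classes set by each barcode's markers. P4ha1 was at 66.6 and 24.4 CPM, a ratio of 0.366 (0.2497 to 0.526), and Tpi1 at 214 and 127 CPM, a ratio of 0.594 (0.5001 to 0.702) that turned to 1.90 with free RNA subtracted by its acinar share. Bnip3 rested on 35 and 17 UMIs, with a ratio of 0.629 whose interval (0.331 to 1.15) includes 1, and 0.381 when each barcode counted equally.

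Hk2 was at 21.7 and 42.5 CPM in T/NK-like cells, from 45 and 68 UMIs, a ratio of 1.96 (1.32 to 2.92). It was 1.33 when each barcode counted equally and 6.58 with free RNA subtracted by its acinar share. Pdha1, a subunit of the enzyme that lets pyruvate into the mitochondrial cycle, was at 32.3 and 56.9 CPM, a ratio of 1.76 (1.27 to 2.45), and 3.33 under the same subtraction. Kdm3a was at 23.2 and 40.0 CPM, a ratio of 1.73 (1.17 to 2.57). Ndrg1 was at 66.6 and 114 CPM, a ratio of 1.72 (1.37 to 2.16), and at 0.998 when each barcode counted equally. Gapdh had a ratio of 0.996 (0.937 to 1.06) and Hif1a of 0.923 (0.813 to 1.05). Myeloid markers in these barcodes summed to 2086 and 1161 CPM, and their part was not tested.

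The smaller classes gave the following counts, and the part of other cell types' RNA in them was not tested. In endothelial-like cells 10 of 23 members tested were lower and 0 higher, against 14.2% and 7.42% of 3518 genes. Ankrd37, an HIF target, was at 97.3 and 26.4 CPM there, a ratio of 0.271 (0.133 to 0.507), and P4ha1 at 102 and 17.6 CPM, from 67 and 8 UMIs, a ratio of 0.173 (0.0716 to 0.360). Myeloid markers in endothelial-like barcodes (13 of 14 present in each library) summed to 3573 and 1575 CPM. Neutrophil-like cells had 11 of 28 members lower and 2 higher, against 10.4% and 14.1% of 4900 genes. Slc2a3, their leading transporter in FLOX, was at 140.3 CPM (121 to 162) and 64.9 CPM (49.4 to 83.7), which gave a ratio of 0.463 (0.339 to 0.624), and Egln3 at 123 and 58.3 CPM, a ratio of 0.472 (0.340 to 0.648). Myeloid markers in neutrophil-like barcodes (13 of 14 in each) came to 3398 and 1990 CPM. Dendritic-like cells had 7 of 21 lower and 3 higher, against 12.9% and 9.12% of 4517 genes, while Pfkp, their leading member, was nearly level at 0.953 (0.814 to 1.12). Tumor markers in dendritic-like barcodes came to 192 and 545 CPM (14 and 15 of 21 present) and the dendritic markers themselves to 1291 and 651 CPM.

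Over the 7 classes P4ha1 was the member most often lower, past 1.5-fold in 6 and under 1 in 7, with the weakest ratio in neutrophil-like cells (0.767, 0.479 to 1.21). Tpi1 and Pfkl were lower by the fold in 5 classes each, of 7 and 6 tested, and Bnip3 and Aldoa in 4, of 5 and 7. Egln3 was lower in 3 of 4, all but PSC-like cells. Pgam1, Eno1, Pgk1, Pfkp and Higd1a had ratios under 1 in all 7 classes. Bnip3l was under 1 only in tumor-like cells, at 0.956, with a highest ratio of 1.36. The classes of a library share its handling and its free RNA, so these counts over classes are not repeats of the comparison.

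Free RNA differed between the libraries as well. Of 39 members 9 were lower by 1.5-fold in free RNA (Hk3, Pfkl, Tpi1, Pgam1, Egln3, Bnip3, P4ha1, P4ha2 and Adm) and 0 higher, against 9.56% and 5.28% of 12925 genes. P4ha1 stood in free RNA at 82.2 and 29.5 CPM, a ratio of 0.359, and Bnip3 at 55.3 and 28.3 CPM, a ratio of 0.512. Of the members lower by the fold in a class, 7 of 8 in tumor-like, 7 of 12 in myeloid-like, 2 of 3 in PSC-like and 3 of 3 in T/NK-like cells were among those 9. Over all genes lower in the class, the same held for 59.2% in tumor-like, 49.1% in myeloid-like, 21.4% in PSC-like and 29.6% in T/NK-like cells. The ratio in tumor-like cells lay within 1.5-fold of that in free RNA for 36 of 38 members, and for 92.9% of the 12297 genes tested in both. In myeloid-like cells it did so for 33 of 37 members (87.4% of all genes), in T/NK-like for 23 of 28 (84.3%) and in neutrophil-like for 20 of 28 (77.3%), so these shares were near those of all genes. In PSC-like cells it did so for 26 of 35 (81.3% of all genes). The other 9, Epas1, Egln3, Bnip3, Slc2a1, Slc2a3, Pfkfb2, Eno2, Adm and Kdm3a, were all above it. The shares of all genes above and below it were not counted, so this direction has no background to be read against. Slc2a3, Pfkfb2 and Eno2 rest on few UMIs there.

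The acinar genes put the share of free RNA at 12.8% and 4.42% of tumor-like, 33.3% and 11.3% of PSC-like, 35.6% and 13.1% of myeloid-like and 40.5% and 15.9% of T/NK-like UMIs. These shares are upper limits, and in FLOX 4 or 5 of the 7 marker lists compared gave lower ones. The lowest of any list were 4.80% and 4.25% in tumor-like, 5.53% and 11.3% in PSC-like, 6.91% and 6.21% in myeloid-like and 6.39% and 5.47% in T/NK-like cells. The acinar subtraction thus took more from FLOX than those lists allow. With the acinar share subtracted P4ha1 kept ratios of 0.323 in tumor-like, 0.463 in PSC-like, 0.419 in myeloid-like and 0.444 in T/NK-like cells. Under the same subtraction Epas1 in PSC-like cells was at 1.78, Slc2a1 in myeloid-like cells at 0.484 and Egln3 in myeloid-like cells at 0.750. The glycolysis sum turned from 0.904 to 1.14 in PSC-like cells and from 0.891 to 1.23 in T/NK-like cells, but with the lowest shares it was 0.903 and 0.906. With the lowest shares, a setting added after the data were seen, the ratios of Epas1 in PSC-like cells (2.29), Egln3 in myeloid-like cells (0.419) and Tpi1 in T/NK-like cells (0.597) were also close to the unsubtracted ones.

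**Figure D5:**
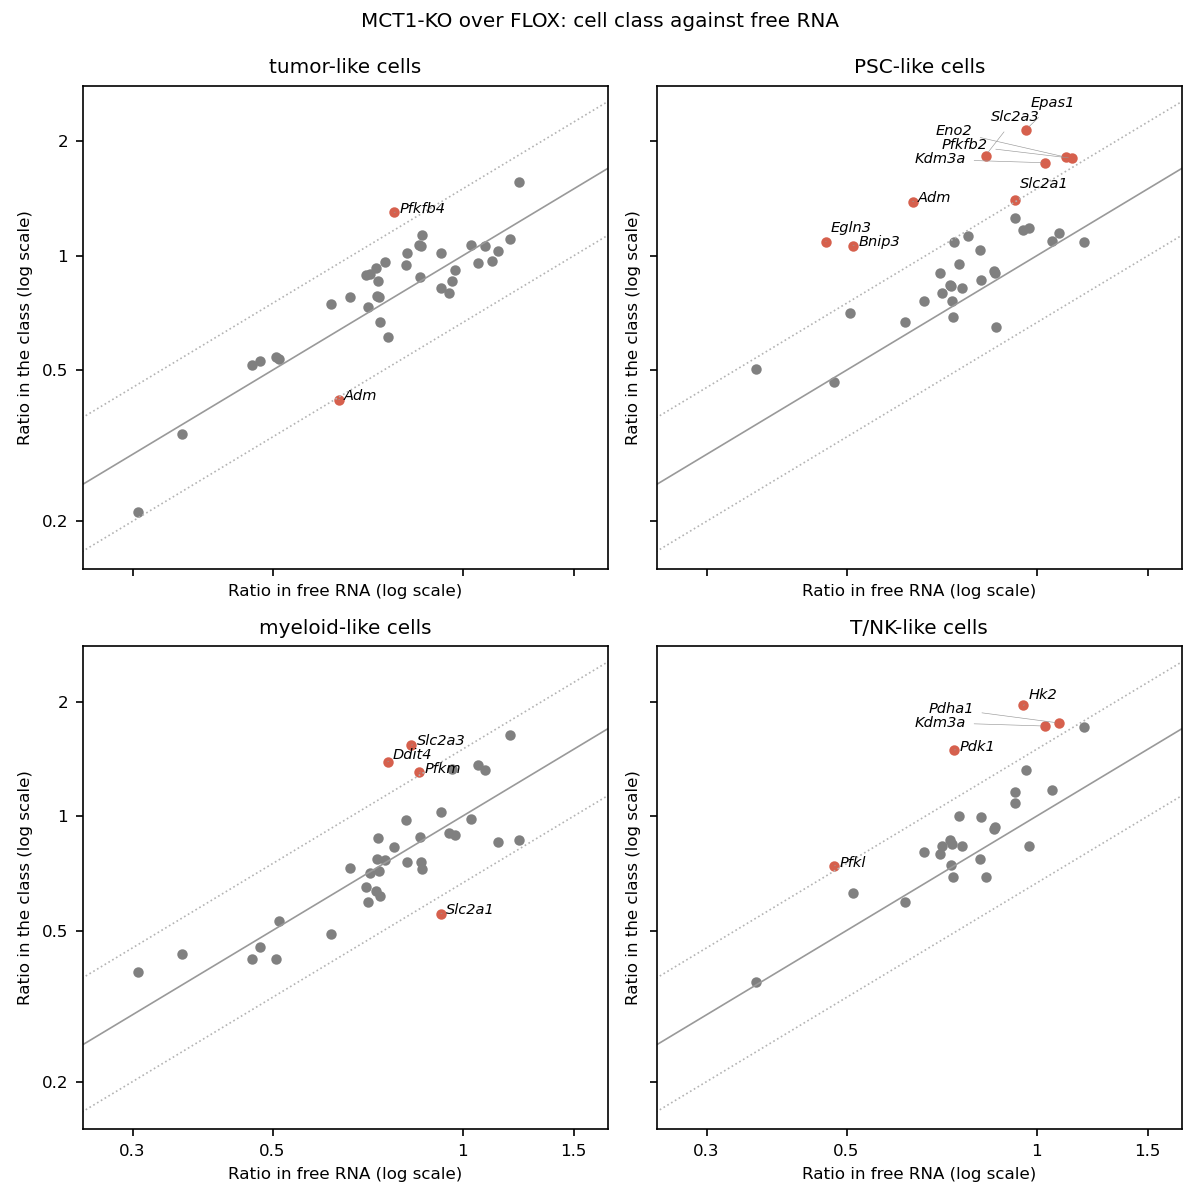
Ratio of each member in free RNA (barcodes of 10 to 100 UMIs, x axis) against its ratio in tumor-like, PSC-like, myeloid-like and T/NK-like cells (y axis), both MCT1-KO over FLOX on log axes, with the line of equal ratios and members 1.5-fold off it named. In tumor-like cells 36 of 38 members lay within 1.5-fold of the line, and in PSC-like cells 26 of 35.

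Other genes of the same pathways were counted from a list of 52 found in the files. In tumor-like cells 5 of 40 tested were lower (Ldhb, Slc16a3, Ero1l, Hmox1 and Plod2) and 0 higher, against the 8.62% and 5.49% of all genes, with a median ratio of 0.905. Slc16a3, the lactate exporter MCT4, was rare there at 71 and 32 UMIs, a ratio of 0.280 (0.178 to 0.430), and Ldha, which makes lactate, was level at 717 CPM in each library with a ratio of 0.999. In PSC-like cells 7 of 33 were lower (Slc16a3, Vegfa, Bpgm, Angptl4, Plod2, Loxl2 and Gys1) and 1 higher (Gbe1), against 11.1% and 9.84% of all genes. Plod2 and Loxl2, which hydroxylate and cross-link collagen, had ratios of 0.280 (0.243 to 0.321) and 0.438 (0.391 to 0.490) there.

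In myeloid-like cells 9 of 36 were lower (Slc16a3, Vegfa, Pgm1, Mif, Ero1l, Fam162a, Hmox1, Angptl4 and Gys1) and 1 higher (Egln2), against 8.93% and 9.14% of all genes. Slc16a3 was at 51.1 and 21.6 CPM there, a ratio of 0.423 (0.366 to 0.488), and Vegfa, the vascular growth factor, at 113 and 57.1 CPM, a ratio of 0.504 (0.461 to 0.551). In T/NK-like cells 2 of 24 were lower (Eno3 and Fam162a) and 1 higher (Gbe1), against 9.5% and 7.02%, so their share was near the background. Vegfa was level in tumor-like cells, at 81.0 and 80.1 CPM, a ratio of 0.988 (0.942 to 1.04).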

How the data were processed

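Single cells from tumors of FLOX and MCT1-KO mice were counted in 1 library each, prepared from unsorted live cells with a 3' microwell kit per the labels (the study's methods name droplet kits). Fastp and SeekOneTools were the authors' tools for trimming and counting, and the deposited values are raw UMI counts per gene and barcode, unfiltered. The methods name the human build GRCh38 although the deposited identifiers are those of mouse Ensembl genes, and the build actually counted against is not given in the sources used here. The submitters' processing notes name Seurat 4.0.0.

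Barcodes with at least 500 UMIs, 200 to 5000 genes and up to 8% mitochondrial UMIs were kept, doublets included. They were log-normalized with a factor of 10000, integrated by canonical correlation anchors and clustered in Seurat 5.3.0 (R 4.3.3, Matrix 1.6.5) on 20 dimensions at a resolution of 0.8. Of 2000 variable genes the members were left out, which left 1992. The 24 clusters were named from fixed markers, at least 3 of them detected in 10% of cells, with cut-offs that were chosen once the clusters were known. The members and gene lists were chosen with earlier results of these data known. UMIs were summed per class and divided by the total of the class (pandas 2.3.3, numpy 2.4.6 and scipy 1.17.1 under python 3.11.15, with scanpy 1.11.5 for doublet scores and matplotlib 3.10.9 for figures).

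Levels have exact Poisson intervals, ratios conditional binomial ones and shares Clopper-Pearson ones, all 95% and for counting error only. In simulated Poisson counts the ratio interval held the true value for 95.4% of 13232 genes (tumor-like cells) and 95.7% of 8608 (PSC-like cells). The interval is built for such counts, so this checks the calculation and not the spread of real counts between barcodes or mice. Counts past 1.5-fold use genes that reach 50 UMIs in the 2 libraries together, with counts below 3 UMIs set to 3. The genes named are, in tumor-like, PSC-like, myeloid-like and T/NK-like cells, the members past that fold, the leading member of each role group, and members with 200 UMIs whose highest class was 2-fold above the next in both libraries. Others were named after their values were seen. Alternatives changed the barcode filters, doublets, resolution, clustering genes, class definition, free RNA (subtracted by its acinar share or, added after the data were seen, by the lowest share of any marker list with 500 UMIs in free RNA), weighting and total, and thinning was to 1000 or 2000 UMIs. With 1 library per condition no p-value is given. B-like, plasma-like and acinar-like cells had under 50 barcodes in FLOX and were not compared.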

Additional observations from a re-analysis of the deposited data

Results flagged for a closer look

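In 5 members the ratio of MCT1-KO over FLOX passed 1.5-fold in opposite directions in different cell classes, which is 12.8% of 39, against 4.38% of the 11583 genes tested in at least 2 classes. The members were tested in more classes (a median of 6, against 4), and among genes tested in all 7 the opposite calls were 3 of 18 members and 4.58% of 2574 genes. With 1 library per condition the differences between classes were not tested, and intervals cover counting error only. Slc2a3 was higher in PSC-like (1.84, 1.14 to 3.04) and myeloid-like cells (1.54, 0.983 to 2.42), from 25 and 39 FLOX UMIs, and lower in neutrophil-like cells (0.463, 0.339 to 0.624), where it is most abundant. Pfkfb3 was higher in neutrophil-like cells (1.56, 1.11 to 2.19) and lower in myeloid-like (0.593, 0.536 to 0.655) and dendritic-like cells (0.607, 0.365 to 0.979). Ddit4 was higher in dendritic-like (1.80, 1.07 to 3.05) and lower in tumor-like cells (0.613, 0.590 to 0.638). Mxi1, a repressor that opposes Myc, was higher in neutrophil-like (1.61, 1.31 to 1.98) and dendritic-like cells (1.72, 1.17 to 2.52) and lower in endothelial-like cells (0.385, 0.186 to 0.741). Kdm3a was higher in PSC-like (1.76, 1.21 to 2.59) and T/NK-like cells (1.73, 1.17 to 2.57), with a ratio of 0.658 (0.378 to 1.11) in neutrophil-like cells.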

How the results depend on the processing

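The direction of the glycolysis and HIF target sums in tumor-like cells was the same under all 10 alternatives run, and so was that of P4ha1 in the 4 main classes (0.295 to 0.526 over classes and settings). Of 376 comparisons of 38 named gene ratios with an alternative, 372 lay on the same side of 1, and 343 lay past 1.5-fold on that side. The 38 were picked for lying past 1.5-fold in the main setting, and the alternatives reuse the same libraries. Much of this agreement was therefore fixed in advance, and comparisons in which subtraction left no value were not counted.

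With free RNA subtracted by its acinar share, which in FLOX exceeds the share that 4 or 5 of 7 marker lists give, the glycolysis sum ratio reversed to 1.14 in PSC-like and 1.23 in T/NK-like cells, and was 0.957 in tumor-like and 0.757 in myeloid-like cells. The HIF target sum ratio was then 0.840 (tumor-like), 1.14 (myeloid-like) and 1.08 (T/NK-like), members lower numbered 5 (PSC-like), and members higher 6 (myeloid-like) and 8 (T/NK-like). Tpi1 in T/NK-like cells reversed to 1.90. Bnip3 in T/NK-like cells, P4ha2 in myeloid-like cells and Ndrg1 in both gave no value, since the subtraction left none in a library. At the lowest share of any list, an alternative chosen after seeing the data, the tumor-like glycolysis ratio was 0.945 and none of the other 15 sums and counts moved beyond its interval or by over 1.5 times.

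With no upper limit on genes the glycolysis sum ratio was 0.905 (tumor-like), 0.937 (PSC-like) and 0.706 (myeloid-like), the HIF target ratio 0.896 (myeloid-like), and members higher 0 (tumor-like) and 1 (myeloid-like), and Ndrg1 in myeloid-like cells reversed to 0.996. With classes from each barcode's markers the glycolysis ratio was 0.922 (tumor-like) and 0.682 (myeloid-like), the HIF target ratio 0.854 and 0.881, and members higher 0 (tumor-like), 1 (myeloid-like) and 2 (T/NK-like). With each barcode counted equally the glycolysis ratio was 0.922 (tumor-like), 0.845 (PSC-like) and 0.736 (myeloid-like), the HIF target ratio 0.881 (tumor-like) and 0.944 (myeloid-like), members lower 7 (PSC-like) and 6 (T/NK-like), and members higher 1 (myeloid-like). Ndrg1 in T/NK-like cells then reversed to 0.998. Without likely doublets the myeloid-like ratios were 0.699 and 0.898, and members higher in PSC-like cells numbered 3. At a resolution of 0.4 the myeloid-like ratios were 0.707 and 0.907 with 1 member higher, and with the members among the clustering genes 0.706 and 0.913 with 1 higher. The cause of these shifts was not tested. A floor of 1000 UMIs, and a total without mitochondrial, acinar and heat shock genes, moved none of the 16 sums and counts beyond their intervals or by over 1.5 times.

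No paired analysis was possible because each condition had 1 library. Depth limits the smaller classes most: 28 of 39 members had at least 50 UMIs in T/NK-like and 21 in dendritic-like cells, and a lower level of the others could not be read there.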
